A study of Mus musculus with 8 samples.

Results

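The 10 genes described here encode receptors of natural killer (NK) cells and regulators of type 1 immunity, and they were taken by symbol from a list of names, with no threshold on their values. All 10 were found among the 25006 gene identifiers of the count tables, and all 10 passed the filter on low counts, which kept 15310 genes. They are Ncr1, Klrb1c, Klre1, Klrk1, Klrd1, Klrc1, Klrg1, Eomes, Tbx21 and Ifng. RNA was sequenced from 8 tumors or tumor pools of 4T1, a mouse mammary carcinoma line of Balb/c origin that models triple-negative breast cancer. The cells were placed in the mammary fat pad of NSG mice, which lack mature T, B and NK cells, or of immunocompetent Balb/c mice, and the tumors grew for at most 20 days. Whether a library holds 1 tumor or several, and the age and sex of the hosts, are not given in the sources used here.

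There were 4 groups of 2 libraries. NSG wild type and Balb/c wild type each held the parental 4T1 line (replicate 1) and a 4T1 line stably expressing vCas9 (replicate 2). NSG knockout and Balb/c knockout each held CRISPR/Cas9 clone 54 (replicate 1) and clone 69 (replicate 2), from which CD95, the death receptor encoded by Fas, had been removed in the tumor cells only. The hosts were not edited. Replicates of a group are thus different lines, and each knockout library comes from a single clone while nothing says that the wild-type lines are clonal, so that clonality and CD95 status cannot be told apart. The p-values measure the spread between these libraries.

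NK cells kill without prior priming when signals from activating receptors outweigh those from inhibitory ones. Many of their receptors are C-type lectin-like proteins encoded side by side in the NK gene complex. The T-box factors T-bet (Tbx21) and Eomesodermin (Eomes) direct the development of NK cells and of type 1 T cells, and interferon gamma (Ifng) is the main cytokine of both. In tumors interferon gamma is known to act on macrophages and tumor cells, inducing chemokines and antigen presentation.

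Of the 10 genes, 6 lie on chromosome 6 in GRCm38. Klrg1 is at 122270596 to 122282882, Klrb1c at 128778485 to 128789215, and Klre1, Klrd1, Klrk1 and Klrc1 follow between 129577905 and 129678973. Ncr1 lies on chromosome 7 (4337724 to 4345164), Eomes on chromosome 9 (118478212 to 118486132), Ifng on chromosome 10 (118441046 to 118445892) and Tbx21 on chromosome 11 (97098071 to 97115331). All are protein-coding. Klrb1c, Eomes and Ifng share exon bases with a neighbouring annotated transcript (Gm44511, Gm33460 and Gm49751), which has no row in the count tables, so their counts are the less certain for it. Gm44511 and Gm49751 lie on the same strand as Klrb1c and Ifng, and Gm33460 is antisense to Eomes, where the unknown strand setting also bears on the count. Klrc1 has close copies in Klrc2 and Klrc3, so reads could be split among these.

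The members' promoters are shown because these genes were high or low together across the hosts. A RefSeq table of GRCm38.p6 promoters (250 bases before to 50 after the start) held 8 of the 10, without Klrd1 and Klrg1. The letters TGTGGT, the core of the site that Runx factors bind, were found on either strand in the promoters of 5 of these 8, Ncr1, Klrb1c, Klre1, Klrk1 and Klrc1, against 16.76% of the 32851 promoters in the table. The 5 are the members in the table that encode receptors. In these searches a member counted if any of its promoters in the table matched, while the share is of single promoters. Klrb1c, Klre1, Klrk1 and Klrc1 are also neighbours on chromosome 6, so they are not independent cases. For Klrb1c and Klre1 the start used by RefSeq lies inside the GENCODE gene given above, so both matches fall within those genes as GENCODE draws them. The lines give the matches, in capitals, on the gene's strand with 20 flanking bases; ACCACA is the same motif on the other strand.
Ncr1, chr7:4337519-4337699, plus strand: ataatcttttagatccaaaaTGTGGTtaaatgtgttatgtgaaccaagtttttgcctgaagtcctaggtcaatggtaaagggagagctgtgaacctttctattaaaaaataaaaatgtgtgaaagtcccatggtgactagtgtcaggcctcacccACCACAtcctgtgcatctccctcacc
Klrb1c, chr6:128788705-128788750, minus strand: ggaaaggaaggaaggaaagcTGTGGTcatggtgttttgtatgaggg
Klre1, chr6:129577964-129578009, plus strand: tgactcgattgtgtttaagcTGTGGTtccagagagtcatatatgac
Klrk1, chr6:129623968-129624013, minus strand: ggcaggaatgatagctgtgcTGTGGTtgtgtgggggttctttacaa
Klrc1, chr6:129679035-129679080, minus strand: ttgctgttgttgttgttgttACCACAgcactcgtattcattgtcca
The T-box half-site GGTGTGA was in 0 of the 8 windows and in 3.98% of all promoters. The interferon gamma activated site TTCNNNGAA was in 1 of the 8, that of Ifng, and in 8.30% of all promoters. These searches ran over both strands; a match is a run of letters, not a measured binding site.

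Library totals ranged from 8.68 M to 19.7 M counts, the NSG knockout libraries being the smallest. Fas, the targeted gene, was read in every library. In NSG tumors it stood at 33.9 and 22.6 CPM (counts scaled to a common library depth) in wild type and at 29.5 and 12.9 CPM in knockout. In Balb/c tumors it stood at 51.6 and 46.9 CPM in wild type and at 27.1 and 33.7 CPM in knockout. The knockout log2 fold change of Fas in edgeR was -0.42 in NSG (SE 0.37, adjusted p = 0.628) and -0.70 in Balb/c (SE 0.36, adjusted p = 0.225), so CD95 status rests on the labels. Of 14 T cell markers listed, the 11 that had a count column summed to between 6.21 and 12.2 CPM in NSG and between 422 and 515 CPM in Balb/c libraries.

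The first comparison set the same lines in an immunocompetent host against an immunodeficient one. The hosts also differ in strain, so strain and immune status cannot be told apart. All 10 transcripts were read in every Balb/c library. In NSG tumors 8 of them had at most 7 counts in any library, the exceptions being Klrk1 and Eomes. In wild-type tumors all 10 genes were higher in Balb/c (edgeR adjusted p at most 0.0169 for each), where 15.3% of all genes tested were called higher and 31.5% were called in either direction. In knockout tumors 9 of 10 were higher, with a background of 15.7% called higher and 31.1% in either direction. The exception in edgeR was Eomes, which passed in DESeq2, in limma-voom and in edgeR with no filter. Every Balb/c library lay above every NSG library of the same CD95 status for 10 of 10 genes in both comparisons, against 35.4% of all genes among wild types and 32.4% among knockouts. Ncr1, Klrc1, Klrg1 and Ifng had no count in any NSG library, and Klre1 and Tbx21 had at most 2. These members passed the filter through Balb/c libraries alone. A higher level in Balb/c was thus largely fixed in advance for them, and the comparison with all genes is no test of it. In bulk tissue, fewer cells of a type and less RNA per cell cannot be told apart.

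The receptors found mainly on NK cells and type 1 innate lymphoid cells came first. Ncr1 encodes NKp46, an activating receptor that marks NK cells across mammals. It had 0 counts in all 4 NSG libraries, and in Balb/c it reached 3.65 and 5.34 CPM in wild type and 13.6 and 8.68 CPM in knockout. Against a floor of 3 counts over the NSG group, Ncr1 was at least 40.5-fold higher in Balb/c among wild types and at least 74.6-fold higher among knockouts. Klrb1c had between 1 and 7 counts in each NSG library. In Balb/c it stood at 2.72 and 4.02 CPM in wild type and at 9.63 and 5.76 CPM in knockout. The Balb/c to NSG ratio of Klrb1c was 10.1 in wild type (95% counting interval 5.10 to 22.8) and 25.9 in knockout (11.7 to 71.2). Its call in wild type was lost without NSG wild type replicate 1 (edgeR adjusted p = 0.0926) or without Balb/c wild type replicate 2 (0.0662). Klre1, which pairs with other lectin-like chains into either activating or inhibitory receptors, had 2, 0, 1 and 0 counts in the NSG libraries. In Balb/c it stood at 3.23 and 5.61 CPM in wild type and 8.52 and 6.42 CPM in knockout, a ratio to NSG of 60.2 (16.3 to 503) and 148 (26.3 to 5874). Its edgeR log2 fold change ran from 4.90 to 8.84 in wild type and from 6.01 to 9.67 in knockout with 1 library left out. For each of these 3 receptors both Balb/c knockout libraries lay above both Balb/c wild-type libraries, as they did for 32.9% of all genes.

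The next receptors are shared with T cells. Klrk1 encodes NKG2D, an activating receptor for stress-induced ligands that is present on NK cells and on cytotoxic T cells. Of the 7 receptors it alone had more than 10 counts in any NSG library, at 2.56 and 1.91 CPM in wild type and 1.28 and 0.298 CPM in knockout. In Balb/c, Klrk1 reached 29.3 and 44.2 CPM in wild type and 47.0 and 42.8 CPM in knockout, and these groups overlapped. Its Balb/c to NSG ratio was 16.6 (12.8 to 21.9) in wild type and 58.5 (35.3 to 105) in knockout. In edgeR the knockout log2 fold change between hosts was 5.83, and it ran from 5.12 to 7.19 with 1 library left out. Klrd1 encodes CD94, the partner chain of the NKG2 receptors. It had 6, 2, 2 and 0 counts in NSG, and in Balb/c 15.5 and 22.8 CPM in wild type and 24.2 and 27.9 CPM in knockout, so that the Balb/c groups lay apart by a small gap.

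Klrc1 encodes NKG2A, the inhibitory chain that joins CD94 and reads the nonclassical class I molecule Qa-1. It had 0 counts in all 4 NSG libraries, against 20.7 and 37.0 CPM in Balb/c wild type and 36.6 and 45.3 CPM in Balb/c knockout, where the 36.6 CPM of clone 54 fell just under the 37.0 CPM of the vCas9 line. Klrc1 was at least 262-fold higher than in NSG among wild types and at least 260-fold higher among knockouts. Klrg1, an inhibitory receptor of mature NK cells and late effector T cells, was likewise at 0 counts in NSG. In Balb/c it stood at 2.38 and 3.53 CPM in wild type and at 5.34 and 5.69 CPM in knockout, and these groups did not overlap. Its bounds were at least 26.6-fold and at least 35.5-fold.

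The T-box factors follow. Tbx21 had 1 count in NSG wild type replicate 2 and 0 in the other NSG libraries. In Balb/c it stood at 4.93 and 7.48 CPM in wild type and at 14.7 and 12.0 CPM in knockout, with both knockout libraries above both wild-type libraries. It was at least 87.6-fold higher in Balb/c than in NSG among knockouts, and among wild types the ratio was 168 (29.7 to 6673). The wild-type log2 fold change in edgeR was 7.04, and it ran from 6.07 to 9.36 with 1 library left out. Eomes had the highest level of any member in an NSG library. It stood at 0.416 and 1.33 CPM in NSG wild type and at 7.70 and 0.895 CPM in NSG knockout, the high value being clone 54, and its 4 Balb/c libraries held 13.0, 11.1, 17.6 and 15.9 CPM.

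The Balb/c to NSG ratio of Eomes was 14.4 (9.34 to 23.3) in wild type and 4.05 (3.20 to 5.18) in knockout. In wild type its edgeR log2 fold change was 3.81, and it ran from 3.17 to 4.81 with 1 library left out. In knockout its log2 fold change was 1.97 (SE 0.76, adjusted p = 0.0845 in edgeR). Without the clone 54 library in NSG it was 4.21, with an adjusted p-value of 0.00724. In wild type the call was lost on leaving out any single one of the 4 libraries compared, with adjusted p-values from 0.0539 to 0.115. In the NSG clone 54 library the NK receptors Ncr1 and Klrc1 were at 0 and 6 of the 10 members taken as NK cell markers (Ncr1, Klrb1c, Klre1, Klrk1, Klrd1 and Klrc1) summed to 1.71 CPM, within the NSG range of 0.796 to 3.25 CPM. Klrk1, which T cells also use, made up 1.28 CPM of that sum.

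Ifng, the effector cytokine of the group, had 0 counts in all 4 NSG libraries. In Balb/c it reached 3.31 and 6.31 CPM in wild type and 17.5 and 12.3 CPM in knockout, with a wide gap between the groups. It was at least 43.8-fold higher in Balb/c than in NSG among wild types and at least 98.9-fold higher among knockouts.

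**Figure D1:**
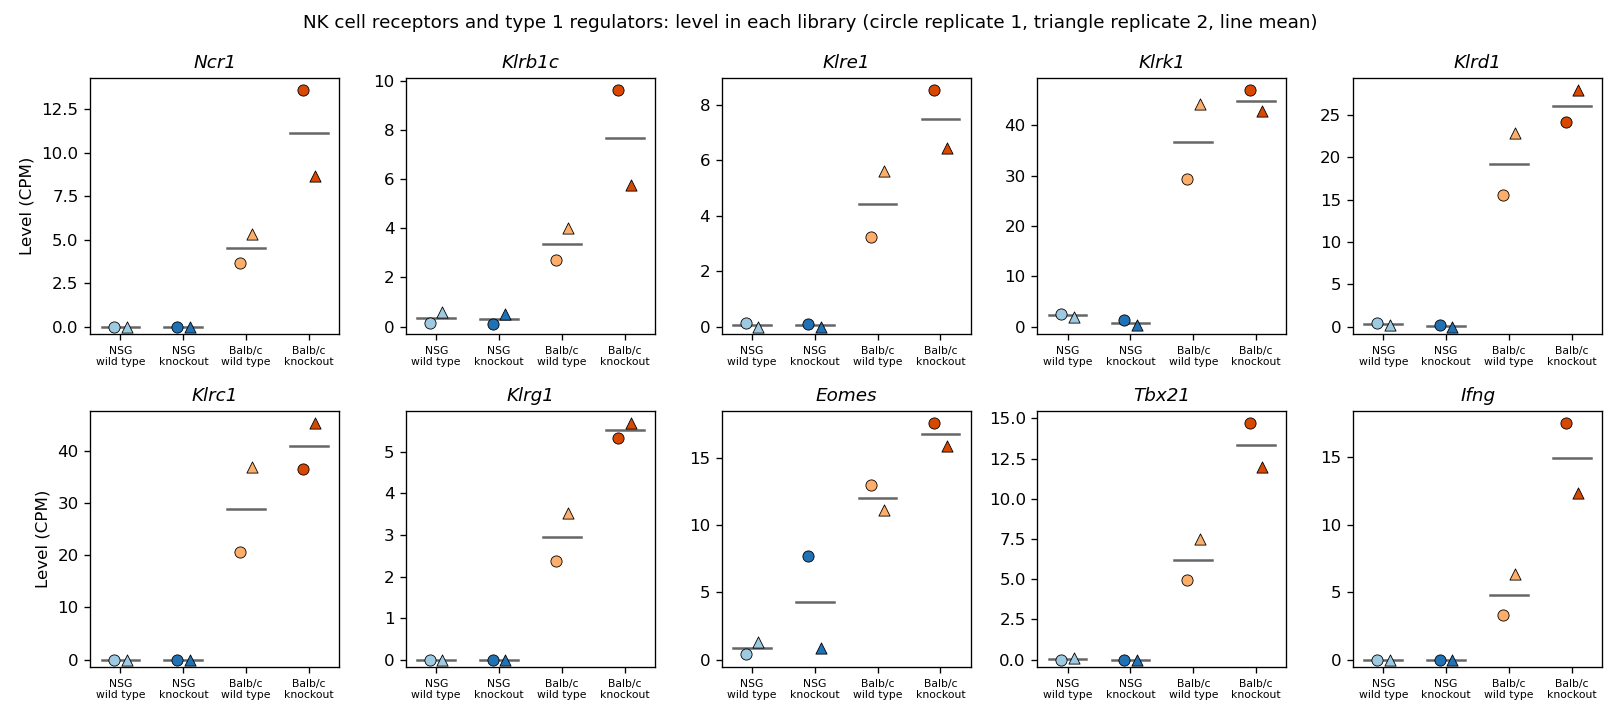
Level of each of the 10 genes in CPM (vertical axis, own scale per gene, linear) in the 4 groups. Circles are replicate 1 (parental line or clone 54), triangles replicate 2 (vCas9 line or clone 69) and bars the mean of 2 libraries. The NSG libraries sit below all Balb/c libraries of the same CD95 status, with Eomes in clone 54 at 7.70 CPM and Klrk1 at up to 2.56 CPM.

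Levels can be compared between genes only per length, and they were divided by the union of annotated exons. In Balb/c wild type, Klrd1 (15.0 ± 4.01 CPM per kb, SD, n = 2) and Klrc1 (14.5 ± 5.80) led and overlapped each other. Klrk1 followed at 5.12 ± 1.47 CPM per kb, and its libraries lay below those of Klrc1 on this scale. In CPM Klrk1 had the highest mean, 36.8 against 28.9 for Klrc1 and 19.2 for Klrd1. Its exon union is 7183 bases, against 1984 for Klrc1 and 1281 for Klrd1, so its place depends on that length. Which transcripts were expressed was not determined. Ifng, Ncr1, Eomes, Tbx21 and Klrg1 then ranged from 3.71 down to 2.09 CPM per kb, each overlapping its neighbour, and Klre1 (1.27) and Klrb1c (1.14) were lowest. In Balb/c knockout, Klrc1 (20.6 ± 3.10 CPM per kb, SD, n = 2) and Klrd1 (20.3 ± 2.04) again led and overlapped. The third place was held by Ifng at 11.5 ± 2.80 CPM per kb, apart from its neighbours on either side. Ncr1 came next at 7.23 ± 2.26 CPM per kb, overlapping Klrk1 at 6.25 ± 0.409.

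In NSG hosts, knockout against wild type compares the tumor lines without mature host lymphocytes. Only Klrb1c, Klrk1, Klrd1 and Eomes had enough counts in NSG to be described, and 0 of these 4 passed in edgeR, where 0.0131% of all genes were called; 2 of the 4 had an unadjusted p under 0.05 in edgeR, against 14.0% of all genes. Both knockout libraries lay below both wild-type libraries for Klrk1 alone, against 25.8% of all genes, with a log2 fold change of -1.52 (SE 0.53, adjusted p = 0.296 in edgeR). Its counts there were 37 and 23 in wild type and 12 and 3 in knockout. Without NSG knockout replicate 1 (clone 54) its value was -2.88, and without NSG knockout replicate 2 (clone 69) it was -0.81, with adjusted p-values up to 0.989 over the 8 fits that each left out 1 library. Eomes had a log2 fold change of 2.32 (SE 0.89, adjusted p = 0.318), which was 0.07 without the clone 54 library. Klrd1 stood at -1.45 (SE 1.0, adjusted p = 0.529) and Klrb1c at -0.17 (SE 0.92, adjusted p = 0.950), with overlapping libraries. On 8 and 2 summed counts, the Klrd1 value ranged from -5.08 without the clone 54 library to -0.47 without the clone 69 library. DESeq2 and limma-voom also called 0 of the 4, where they called 2.41% and 0.00653% of the genes they tested.

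In Balb/c hosts, where the series title places the question of immune infiltration, the comparison of knockout with wild type covers all 10 genes. All 10 fitted log2 fold changes were above 0, but 0 of 10 passed the threshold in edgeR, 1 of 10 (Ifng) in DESeq2 and 0 of 10 in limma-voom. DESeq2 called 16.0% of the genes to which it gave an adjusted p, and 5.56% as higher. In edgeR 0.176% of all genes were called and 0.0457% were called higher, and limma-voom called 0.124%. An unadjusted p under 0.05 was reached by 3 of 10, Ifng, Ncr1 and Tbx21, against 30.9% of all genes in either direction and 16.6% in the higher direction. That count of 3 was 0 without Balb/c knockout replicate 1, 1 without Balb/c wild type replicate 1, 4 without replicate 2 of either Balb/c group and 5 in limma-voom. The share of all genes above 0 was 53.3%. Both knockout libraries lay above both wild-type libraries for 8 of 10, against 32.9% of all genes, the overlapping ones being Klrk1 and Klrc1. The median of the 10 was 0.82, against 0.06 for all genes.

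Ifng had the highest value of the 10, a log2 fold change of 1.62 (SE 0.43, adjusted p = 0.0763 in edgeR). Its adjusted p-value was 0.0310 in DESeq2, 0.0525 in limma-voom and 0.0347 in edgeR with no filter. Its log2 fold change ran from 1.24 to 2.09 over the 8 fits that each left out 1 library. Ncr1 followed at 1.31 (SE 0.40, adjusted p = 0.0985 in edgeR), and ran from 0.84 to 1.60 over the same fits. Whether Ifng and Ncr1 passed depended on the library left out. Tbx21 stood at 1.10 (SE 0.39, adjusted p = 0.118) and Klrb1c at 1.19 (SE 0.55, adjusted p = 0.186). With all libraries, the fitted level in knockout was more than 1 log2 unit above wild type in all 4 of these genes. With 1 library left out, the lowest values were 0.84 for Ncr1, 0.67 for Klrb1c, 0.84 for Tbx21 and 1.24 for Ifng. With all libraries and the filter none of the 4 passed in edgeR.

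The remaining members had smaller differences. Klrg1 stood at 0.89 (SE 0.41, adjusted p = 0.199 in edgeR) and Klre1 at 0.75 (SE 0.51, adjusted p = 0.343). Among the other receptors, Klrc1 stood at 0.50 (SE 0.32, adjusted p = 0.332), Klrd1 at 0.44 (SE 0.36, adjusted p = 0.431) and Klrk1 at 0.29 (SE 0.35, adjusted p = 0.594). Eomes stood at 0.48 (SE 0.71, adjusted p = 0.670), and its own libraries lay apart by a small gap, so that within the T-box pair Tbx21 had the higher fitted value; the pair was not tested against each other.

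**Figure D2:**
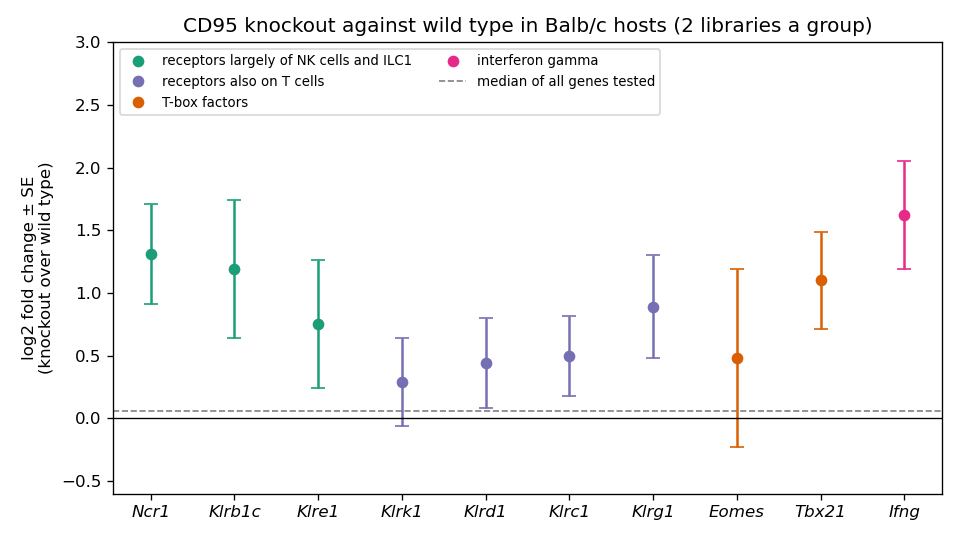
Log2 fold change of knockout over wild type in Balb/c hosts (vertical axis) for each gene, with bars of 1 SE from edgeR and 2 libraries a group. Colours mark the role, and the dashed line is the median of all genes tested (0.06). All 10 points lie above 0, from 0.29 for Klrk1 to 1.62 for Ifng.

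Whether the knockout effect differed between the hosts was tested for the 3 members with more than 3 counts in each NSG group. The difference for Klrk1 was 1.81 (SE 0.64, edgeR p 0.0224 unadjusted, adjusted p = 0.163), and it was 3.17 without the clone 54 library in NSG and 1.10 without the clone 69 library. Its unadjusted p was above 0.05 in 4 of the 8 fits that left out 1 library, at 0.0817 without NSG wild type replicate 1, 0.0703 without NSG knockout replicate 2, 0.0580 without Balb/c wild type replicate 1 and 0.0517 without Balb/c knockout replicate 1. The difference was 1.36 (SE 1.09, adjusted p = 0.483) for Klrb1c and -1.84 (SE 1.14, adjusted p = 0.369) for Eomes, and the latter was 0.41 without the clone 54 library in NSG. For Klrb1c it ranged from 0.10 without NSG wild type replicate 2 to 2.81 without NSG knockout replicate 2. None of the 3 passed in edgeR, DESeq2 or limma-voom. In the same test edgeR and limma-voom each called 0.00% of all genes and DESeq2 called 7.05% of those it tested; 22.5% had an unadjusted p under 0.05 in edgeR. For Klrd1, with 2 counts in NSG knockout, the fitted difference was 1.89 (SE 1.06, adjusted p = 0.323). The remaining 6 members had at most 3 counts over the 4 NSG libraries, too few for a knockout fold change in that host.

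Marker transcripts of other cell types were summed in the same Balb/c libraries. Ptprc, the CD45 gene of all leukocytes, stood at 2164 and 1837 CPM in wild type and 1404 and 1661 CPM in knockout. The 11 T cell markers summed to 515 and 422 CPM in wild type and to 480 and 482 CPM in knockout. The 4 macrophage markers summed to 7091 and 3118 CPM in knockout against 1602 and 1905 CPM. The 4 neutrophil markers summed to 245 and 1634 CPM against 6160 and 4549 CPM, and the 5 B cell markers to 6.67 and 10.3 CPM against 160 and 32.5 CPM. Each of these lists had 0 of its members at 0 in the Balb/c libraries, and 0 members of any passed in the knockout comparison in edgeR or limma-voom. In edgeR an unadjusted p under 0.05 was reached by 4 of 4 macrophage, 3 of 4 neutrophil, 4 of 5 B cell and 1 of 11 T cell markers, and DESeq2 called 4, 3, 4 and 1 of these. Of all genes, 30.9% reached that p in edgeR and DESeq2 called 16.0%. The 6 epithelial markers summed to 705 and 1773 CPM in wild type and 694 and 3754 CPM in knockout. The 5 markers of type 1 innate and tissue-resident lymphocytes summed to 374 and 322 CPM in wild type and 350 and 336 CPM in knockout, but went both ways. Itga1, Cxcr6 and Tnfsf10 had both knockout libraries above both wild-type libraries, where 32.9% of all genes did. Il7r had both below, at 104 and 118 CPM against 184 and 124 CPM, and Il21r overlapped. In NSG wild type, Il7r was also read at 95.4 and 77.9 CPM and Itga1 at 53.8 and 66.3 CPM. The part of these cell types in the members' differences was not tested.

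The members were also set against these markers within a library, which removes the library's scaling. Per 1000 Ptprc counts, both knockout libraries lay above both wild-type libraries for 10 of 10 members, against 51.2% of all genes on the same scale, Ptprc itself being lower in both knockout libraries. The members had knockout to wild type ratios from 1.57 for Klrk1 to 4.00 for Ifng. Ifng held 1.53 and 3.43 counts per 1000 Ptprc counts in wild type and 12.4 and 7.42 in knockout. Per 1000 summed T cell marker counts this held for 7 of 10, against 26.0% of all genes on that scale. Ifng was at 6.43 and 14.9 in wild type and 36.4 and 25.6 in knockout, a ratio of 2.90. Ncr1 was at 7.09 and 12.6 in wild type and at 28.3 and 18.0 in knockout, a ratio of 2.35.

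The 3 members that overlapped on the T cell scale were Klrk1, Klrd1 and Klrc1, with ratios of 1.15, 1.28 and 1.33. Tbx21 had a ratio of 2.03 and Klrb1c of 2.16 on that scale. Klre1 was apart only narrowly, at 6.26 and 13.3 in wild type and 17.7 and 13.3 in knockout. By role, the 3 receptors found mainly on NK cells summed to 18.6 and 35.5 counts per 1000 T cell marker counts in wild type and 66.1 and 43.3 in knockout. The 4 receptors shared with T cells summed to 132 and 255 in wild type and to 236 and 252 in knockout, and overlapped.

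**Figure D3:**
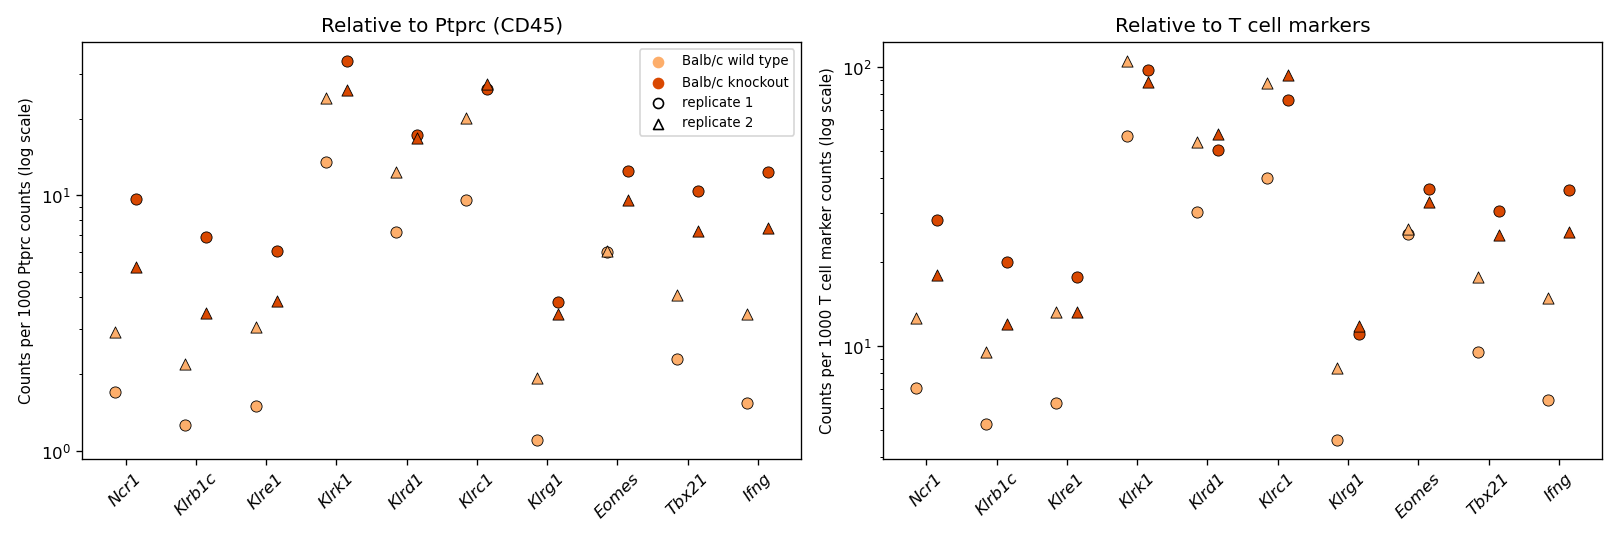
Counts of each gene per 1000 counts of Ptprc (left) and per 1000 summed counts of the 11 T cell markers (right) in the 4 Balb/c libraries, on log axes. Points are single libraries, coloured by CD95 status. On the left the knockout libraries lie above the wild-type ones for 10 of 10 genes (51.2% of all genes), on the right for 7 of 10 (26.0%).

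Other genes of the pathway were described from lists that, like the members, were chosen with earlier results of these data known. Their counts stand beside 15.3% of all genes called higher in Balb/c among wild types and 15.7% among knockouts, and, between the Balb/c groups, 30.9% at an unadjusted p under 0.05 in edgeR and 16.0% called in DESeq2. Among 28 kept genes of other NK receptors and adaptors, 20 were higher and 2 lower in Balb/c than in NSG among wild types in edgeR, and 22 were higher and 3 lower among knockouts. In the Balb/c knockout comparison 0 of 28 passed (7 at an unadjusted p under 0.05; 3 higher and 1 lower in DESeq2, 0 in limma-voom), 18 were above 0 and the median was 0.39, against 0.06 for all genes. Klrb1a, an activating relative of Klrb1c, had the highest value among those averaging at least 1 CPM in either group, at 0.425 and 0.901 CPM in wild type and 4.92 and 2.99 CPM in knockout, a log2 fold change of 2.54 (SE 0.75, adjusted p = 0.0779 in edgeR). Klra17 had the lowest of these, at 17.3 and 12.5 CPM in wild type and 3.07 and 4.60 CPM in knockout, a log2 fold change of -1.97 (SE 0.33, adjusted p = 0.0564 in edgeR). DESeq2 called Klra17 but not Klrb1a. Klra17 was also read in NSG tumors, at 6.63 to 15.0 CPM, where the 6 members taken as NK cell markers summed to at most 3.25 CPM.

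Ligands of NK receptors are made largely by other cells of the tumor. Of 14 kept ligand genes, 3 were higher and 1 lower in Balb/c in each host comparison, where 31.5% (wild type) and 31.1% (knockout) of all genes were called in either direction, and in the Balb/c knockout comparison 0 passed (6 at an unadjusted p under 0.05; 1 higher and 3 lower in DESeq2, 0 in limma-voom), with a median of -0.03. Cd48, the leukocyte ligand of the receptor 2B4, stood at 27.3 and 30.8 CPM in wild type and 84.6 and 52.0 CPM in knockout (log2 fold change 1.23, SE 0.30, edgeR adjusted p = 0.0607). Clec2f, of the family that binds the Klrb1 receptors, stood at 3.82 and 4.02 CPM in wild type and 0.741 and 1.17 CPM in knockout (log2 fold change -2.05, SE 0.47, adjusted p = 0.0579). The libraries of both genes lay apart, in opposite directions, and DESeq2 called both.

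Cytokines and signalling genes that drive or relay Ifng were mostly below 0 between the Balb/c groups. Of 15 genes of the interleukin 12, 15 and 18 and interferon gamma pathway, 9 were higher in Balb/c among wild types and 8 among knockouts, with 0 lower. Between the Balb/c groups 0 of 15 passed (4 at an unadjusted p under 0.05; 4 lower in DESeq2, Il12a among them, and 0 in limma-voom), 5 were above 0, and the median was -0.36. Il12a, the p35 chain of interleukin 12, stood at 11.8 and 8.25 CPM in wild type and 1.90 and 3.43 CPM in knockout (log2 fold change -1.92, SE 0.56, edgeR adjusted p = 0.0764). Il12b, the p40 chain, stood at 2.80 and 2.63 CPM in wild type and 5.92 and 2.99 CPM in knockout (log2 fold change 0.72, SE 0.58, adjusted p = 0.424). The knockout libraries were thus lower for the first chain and higher for the second, without a call for either in edgeR.

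Genes that interferon gamma induces were called in the host comparisons. Of 20 such genes, 18 were higher in Balb/c among wild types and 19 among knockouts, with 0 lower. In the Balb/c knockout comparison 0 of 20 passed (6 at an unadjusted p under 0.05; 4 higher in DESeq2, Cxcl9 among them, and 0 in limma-voom), 16 were above 0, 12 had libraries that lay apart with knockout higher (32.9% of all genes), and the median was 0.43. Cxcl9, a chemokine for activated T and NK cells, stood at 14.0 and 33.7 CPM in wild type and at 185 and 53.2 CPM in knockout (log2 fold change 2.32, SE 0.61, edgeR adjusted p = 0.0656). Cd274, which encodes PD-L1, had the lowest value, at 914 and 1018 CPM in wild type and 442 and 946 CPM in knockout (log2 fold change -0.48, SE 0.50, adjusted p = 0.539), and its groups overlapped.

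Other lymphoid transcription factors were lower in Balb/c knockout more often than higher by fitted value. Of 13 genes, 9 were higher in Balb/c than in NSG among wild types, and 11 higher and 1 lower among knockouts. Between the Balb/c groups 0 of 13 passed (5 at an unadjusted p under 0.05; 3 lower in DESeq2, Tcf7 among them, and 0 in limma-voom), 3 were above 0 and the median was -0.65. Id2, needed for innate lymphoid and NK cells, stood at 451 and 462 CPM in wild type and 573 and 566 CPM in knockout (log2 fold change 0.32, SE 0.21, edgeR adjusted p = 0.323). Tcf7, the factor TCF1 of naive and memory-like T cells, stood at 62.2 and 18.1 CPM in wild type and 11.7 and 13.0 CPM in knockout (log2 fold change -1.70, SE 0.50, adjusted p = 0.0773). Of the 11 T cell markers 0 passed in edgeR and 1, Cd3e, was called lower in DESeq2, with a median of 0.07 in edgeR. In edgeR Cd3g was at 0.35 (adjusted p = 0.297) and Cd3e at -0.89 (adjusted p = 0.0887). No gamma delta T cell marker of the 4 listed was matched by symbol, so those cells were not analysed here.

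**Figure D4:**
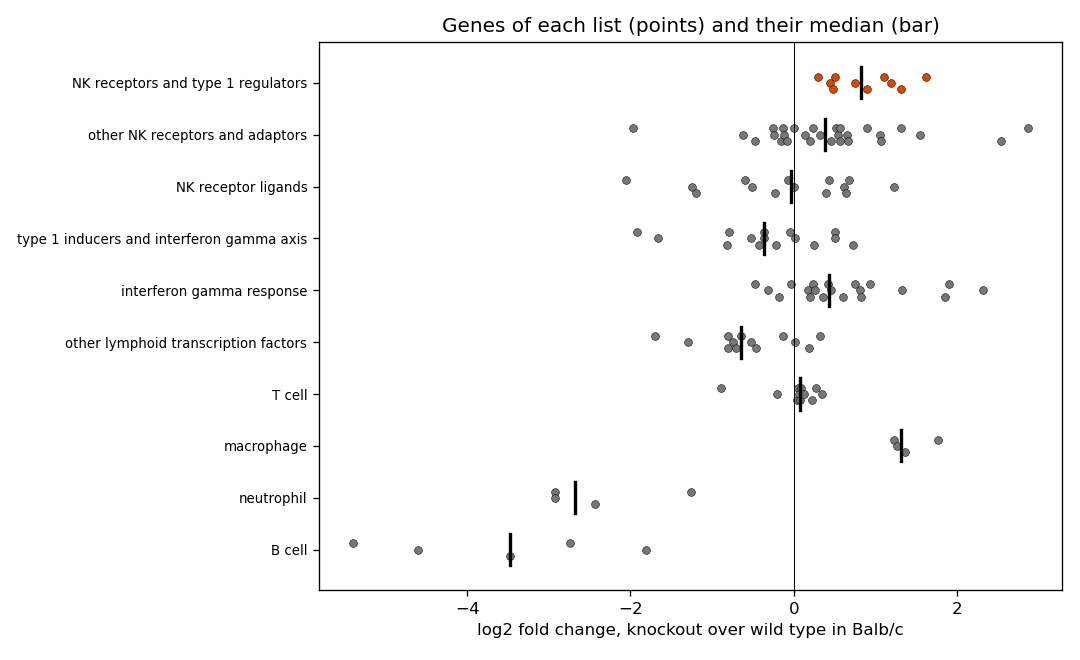
Log2 fold changes of knockout over wild type in Balb/c hosts (horizontal axis) for the 10 genes (orange), the pathway lists and the markers of other cell types (grey), 1 point a gene kept by the filter, with a bar at each median. The median is 0.82 for the 10 genes and -0.65 for the other lymphoid transcription factors, and among cell type markers it runs from 1.31 for macrophages to -3.48 for B cells.

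The genes most alike the 10 were sought by Pearson r, over the 8 libraries, between log2(CPM + 0.5) and the members' mean of the same quantity, among 11147 genes averaging at least 5 CPM in Balb/c. They were Nkg7 (r = 0.998), Cd84 (0.997), Il13 (0.997), Vmn2r26 (0.996) and Fasl (0.996). The 8 points share the host contrast, and how much of r it sets was not tested. Nkg7, a cytotoxic granule protein, stood at 18.9 and 39.4 CPM in wild-type Balb/c tumors and 54.3 and 56.5 CPM in knockout. Fasl, the ligand of CD95, had 5, 5, 2 and 0 counts in NSG and held 19.4 and 23.6 CPM in wild-type Balb/c tumors and 39.3 and 34.0 CPM in knockout. Il13 stood at 6.03 and 9.56 CPM in wild-type Balb/c tumors and 19.3 and 18.3 CPM in knockout. Vmn2r26 stood at 6.12 and 7.21 CPM in wild-type Balb/c tumors and 15.6 and 16.5 CPM in knockout. Cd84 was read in NSG at 94.2 to 116 CPM. In Balb/c Cd84 stood at 409 and 445 CPM in wild type and 569 and 482 CPM in knockout. With a pseudocount of 2 in place of 0.5, 3 of the 5 genes remained among the first 5. These were Nkg7, Il13 and Fasl, while Cd84 fell to rank 12 and Vmn2r26 to rank 13.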

How the data were processed

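The authors deposited raw counts per Ensembl gene, 1 library per file, with 25006 identifiers each, of which 4174 were at 0 in all 8 libraries. The submitters' processing notes name cutadapt 1.13, STAR, HTSeq 0.6.1p1 and DESeq2, and the builds mm10 and hg19, without saying what each was used for; strand setting and annotation are not given in the sources used here. Symbols were found for 24942 identifiers, and positions and exon lengths come from GENCODE M21 (GRCm38).

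Counts were tested in R 4.3.3 with edgeR 4.0.16 (TMM scaling, filterByExpr, glmQLFit, glmQLFTest) in one model of 4 group means over 8 libraries, with 4 residual degrees of freedom and a common biological coefficient of variation of 0.244. Adjusted p-values are Benjamini-Hochberg over 15310 genes, with a threshold of 0.05. CPM was computed from the deposited counts and TMM-scaled totals; 3 counts equal 0.159 to 0.321 CPM in a library. Intervals (95%, exact, on the counts summed over a group) and floors (3 counts over the group, 0.113 CPM in NSG wild type and 0.155 CPM in NSG knockout) cover counting error only. Alternatives were another scaling, other filters, DESeq2 1.42.0, limma-voom (limma 3.58.1), fits of only the libraries compared, replicate blocks and leaving out each library. The procedure was tested on simulated data.

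The members and lists were chosen with earlier results of these data known. From each list were named the genes with the largest and smallest knockout log2 fold change in Balb/c averaging at least 1 CPM in the higher group; the marker lists for other cell types are given as sums, and further names were chosen after their values were seen. Each line grew in both hosts, so lines pair libraries across hosts. Deviations from the group means correlated across hosts at r = 0.08 for the parental and vCas9 lines and r = -0.38 for the clones. The 2 libraries of each group differed by more than sampling noise (chi-square per degree of freedom 15.0 to 94.3).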

Additional observations from a re-analysis of the deposited data

How the results depend on the processing

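Calls of host differences held for most members, while knockout calls depended on the fit. Of 605 values set against an alternative, 587 kept direction and, where tested, side of the threshold. In the rest, 9 gained a call, 6 lost one and 3 turned direction. The 605 are members' fitted values, apart from the r of Nkg7, Cd84, Il13, Vmn2r26 and Fasl with the members. Those r had no threshold and were counted among the 587 without a check. The 605 also include fits that left out a library of a group not compared, where less could change. Under a replicate block by cell line (pairing the same line across hosts, 2 residual degrees of freedom), the genes called between hosts fell from 4825 to 2073 in wild type and from 4757 to 2878 in knockout, while 10 and 9 of the 10 members still passed and the difference between hosts kept 0 calls. Fitting only the libraries compared gave 2450 genes in the knockout host comparison. For knockout in NSG (2 genes), the count was 133 with no filter, 340 with DESeq2, 1 with limma-voom, 1 with only the libraries compared and 0 with the replicate number as a block. For knockout in Balb/c (27 genes), it was 94 with RLE size factors, 1774 with no filter, 2208 with DESeq2, and 0 both with only the libraries compared and with the replicate number as a block; the replicate number pairs nothing within a host. For the difference between hosts (0 genes; 3452 at an unadjusted p under 0.05), it was 674 with no filter, 974 with DESeq2 and 307 with a crossed replicate block (clone 54 of either host matched to clone 69 of the other host), an alternative added after seeing the data. The cause of these shifts was not tested.

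Leaving out 1 library gave 858 (without NSG wild type replicate 1) to 6361 genes for the host comparison in wild type, 2461 (without NSG knockout replicate 2) to 4640 in knockout, 0 to 1 for knockout in NSG, 0 to 3886 (without Balb/c knockout replicate 2) for knockout in Balb/c, and 0 to 2370 (also without Balb/c knockout replicate 2) for the difference. Of the members, Klrb1c turned positive for knockout in NSG without NSG wild type replicate 2 (1.09) and without NSG knockout replicate 1 (0.51), over a range of -1.62 to 1.09, and the Eomes difference between hosts became 0.41 without NSG knockout replicate 1, over a range of -2.84 to 0.41; none of these passed. Eomes in the knockout host comparison passed with no filter (adjusted p = 0.0240), DESeq2 (0.0267), limma-voom (0.0233) and the crossed block (0.0446). Scaling moved the split of calls: with total counts 36.5% of host calls in wild type and 37.3% in knockout were higher in Balb/c, against 48.6% and 50.5%, and the median of all genes moved to -0.24 and -0.17 from -0.08 and 0.02. With RLE size factors 57.9% of the wild-type host calls were higher, and 16.0% against 25.9% of the knockout calls in Balb/c. Every member kept its direction under both scalings. No member but Eomes had more than 37 counts in an NSG library, and the smallest difference that could be detected with 2 libraries a group was not determined.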

Other observations

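Klra8, which encodes the activating receptor Ly49H, differed from the members in direction; the genes of these paragraphs were picked with their values known. It had 14, 26, 14 and 14 counts in the NSG libraries and 0 in all 4 Balb/c libraries, at least 13.2-fold lower in Balb/c among wild types and at least 15.7-fold lower among knockouts. Klra genes are close copies that differ in number between mouse strains, so its reads may belong to another copy, which was not tested. Klrc2, the activating relative of Klrc1, had 0 counts in all 4 NSG libraries and 92, 275, 292 and 251 in the Balb/c libraries, at least 124-fold higher among wild types and at least 108-fold higher among knockouts. Between the Balb/c groups its edgeR log2 fold change was 0.32 (SE 0.45, adjusted p = 0.651).

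H2-T23, which encodes the Qa-1 ligand of the receptor formed by Klrd1 and Klrc1, was read in every library. It stood at 39.8 to 71.5 CPM in NSG, at 243 and 300 CPM in wild-type Balb/c tumors and at 462 and 387 CPM in Balb/c knockout. It was higher in Balb/c in both host comparisons (edgeR adjusted p = 0.00202 and 0.000694), and its Balb/c knockout log2 fold change was 0.64 (SE 0.28, adjusted p = 0.158). Il2rb, the receptor chain through which interleukin 2 and interleukin 15 signal, stood at 0.796 to 4.17 CPM in NSG, at 136 and 168 CPM in wild-type Balb/c tumors and at 221 and 230 CPM in Balb/c knockout, where its log2 fold change was 0.57 (SE 0.41, adjusted p = 0.367).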
